A study of Mus musculus with 5 samples.

Results

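Of the 55357 genes in the deposited table, 8 are described here, each found by its symbol: the VEGF ligand genes Vegfa, Vegfb and Vegfc, the VEGF receptor genes Flt1 and Kdr, and the angiopoietin-like genes Angptl2, Angptl4 and Angptl7. Their identifiers in the table are ENSMUSG00000023951 (Vegfa), ENSMUSG00000024962 (Vegfb), ENSMUSG00000031520 (Vegfc), ENSMUSG00000029648 (Flt1), ENSMUSG00000062960 (Kdr), ENSMUSG00000004105 (Angptl2), ENSMUSG00000002289 (Angptl4) and ENSMUSG00000028989 (Angptl7). The RNA came from stem cells sorted out of the hair follicles of mice aged 75 days (postnatal day 75). The 3 PRC1 i2KO libraries came from Ring1a-/- mice with floxed Ring1b alleles and the transgene K15-CrePR1. Its keratin 15 promoter limits the recombinase to cells that use that promoter, and RU-486 switches it on. The 2 Control libraries (replicates 1 and 3) came from Ring1a-/- mice with floxed Ring1b alleles and no Cre. Ring1a and Ring1b (genes Ring1 and Rnf2) are the catalytic subunits of the Polycomb complex PRC1, so Ring1a was missing in both groups and the groups differ in Cre and in the deletion it makes. From day 50, mice of both groups were given topical 1% RU-486 for 10 days, and back skin was taken 15 days after the last dose. The sort kept cells with EpCAM, CD34 and high α6-integrin at the surface and without Sca1. Whether each library is a different animal is not given in the labels, and the p-values rest on library-to-library spread that may be technical.

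VEGF ligands are secreted proteins that bind tyrosine kinase receptors on endothelial cells and drive the growth of vessels. VEGFA acts mainly through the receptor encoded by Kdr, while the receptor encoded by Flt1 binds VEGFA and VEGFB tightly and can act as a decoy. VEGFC acts mainly on lymphatic vessels. Angiopoietin-like proteins are secreted relatives of the angiopoietins that do not bind the angiopoietin receptor Tek. In mouse skin, resting follicle stem cells secrete Angptl7, which holds lymphatic capillaries close to the bulge, and Angptl4 takes its place when the cells are activated. Vegfa made by the outer root sheath feeds the vessels around the growing follicle.

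The libraries held between 8270419 and 32463173 estimated reads. Rnf2 was at 48.1, 46.6 and 50.2 CPM (reads scaled to a common library size) in PRC1 i2KO, against 67.9 and 57.7 CPM in Control. Rnf2 fell by 0.37 on the log2 scale (SE 0.12, edgeR adjusted p = 0.0363), and Ring1 had 19.6, 28.6 and 24.8 CPM in PRC1 i2KO, against 30.3 and 27.5 CPM in Control (edgeR adjusted p = 0.36). Reads outside a deleted exon can persist, so these levels do not check the genotype. The sorted cells expressed bulge markers in both groups, at a summed 4802 to 6793 CPM over 10 genes in PRC1 i2KO and 20240 to 21250 CPM in Control. Most of the PRC1 i2KO sum was Krt15, at a mean of 3503 CPM against 10510 CPM in Control. The list did not move together: Krt24 and Fgf18 averaged 8.40 and 0.570 CPM in PRC1 i2KO against 703 and 26.1 CPM in Control. Sox9 and Tcf3 did not pass (edgeR adjusted p = 0.178 and 0.987). Of the genes that encode the sort markers, Cd34 had 11.0, 12.3 and 37.2 CPM in PRC1 i2KO libraries and 1548 and 1697 CPM in Control, so the RNA of this sort marker was low in cells sorted for its protein. Summed markers of the upper follicle were at 8038 to 8245 CPM in PRC1 i2KO and 590 to 829.7 CPM in Control (8 genes), and those of the sebaceous gland at 3179 to 3774 CPM in PRC1 i2KO and 503.7 to 524.7 CPM in Control (10 genes). Suprabasal epidermis markers were at 2789 to 3985 CPM in PRC1 i2KO and 1275 to 1289 CPM in Control. Melanocyte markers were at 29.8 to 34.6 CPM in PRC1 i2KO and 5.63 to 6.89 CPM in Control. Dct, the largest part of the PRC1 i2KO sum, averaged 15.8 CPM there and 1.80 CPM in Control, and Kit averaged 7.62 and 0.698 CPM. Pmel and Tyrp1 did not pass (edgeR adjusted p = 0.0917 and 0.132), and Mlana and Tyr had too few reads to be tested. Immune cell markers were at 70.2 to 105 CPM in PRC1 i2KO and 26.5 to 32.6 CPM in Control. Most of the immune sum was Cd74, which averaged 81.3 CPM in PRC1 i2KO and 20.9 CPM in Control. Ptprc, Cd207 and Cd68 did not pass (edgeR adjusted p = 0.974, 0.841 and 0.547). Fibroblast markers were at 32.7 to 33.2 CPM in PRC1 i2KO and 72.1 to 73.85 CPM in Control. Most of that sum was Col1a2, at a mean of 25.2 and 58.7 CPM, while Dcn went the other way (1.94 and 0.123 CPM). The part of these shifts in the results below was not tested, and in bulk RNA fewer cells of a type and less RNA per cell cannot be told apart.

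The upstream windows of 4 of the genes that were called are shown for their base composition and the short elements they hold. Of the 8 genes, 7 had a window in the RefSeq promoter table (build GRCm38.p6), and Angptl4 had none there. Each sequence below is the 250 bases before the annotated start, 5′ to 3′ on the gene's strand, and for Vegfa, with 2 windows in the table, the one furthest upstream is given. Capitals mark matches on either strand to a short list of known elements. One is the GC box, searched as the letters GGGCGG. Another is the TATA box, for which the search used TATAAA. The core of a hypoxia response element was searched in its form with a G first, GCGTG, and also in the form that begins with an A, which is ACGTG.
Flt1: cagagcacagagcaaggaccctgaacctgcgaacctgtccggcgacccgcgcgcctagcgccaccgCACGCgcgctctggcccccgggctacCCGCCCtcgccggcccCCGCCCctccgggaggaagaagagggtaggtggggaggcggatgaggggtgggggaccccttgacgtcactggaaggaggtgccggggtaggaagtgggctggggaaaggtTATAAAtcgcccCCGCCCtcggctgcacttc
Vegfa: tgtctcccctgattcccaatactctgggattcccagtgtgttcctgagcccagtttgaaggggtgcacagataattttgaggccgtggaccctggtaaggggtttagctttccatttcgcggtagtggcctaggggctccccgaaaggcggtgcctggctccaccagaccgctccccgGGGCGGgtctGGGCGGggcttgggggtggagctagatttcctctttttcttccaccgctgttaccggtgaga
Angptl2: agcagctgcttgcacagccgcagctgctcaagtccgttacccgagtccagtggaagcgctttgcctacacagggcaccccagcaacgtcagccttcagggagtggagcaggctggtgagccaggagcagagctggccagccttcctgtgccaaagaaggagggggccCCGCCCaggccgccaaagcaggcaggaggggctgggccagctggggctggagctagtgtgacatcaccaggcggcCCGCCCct
Angptl7: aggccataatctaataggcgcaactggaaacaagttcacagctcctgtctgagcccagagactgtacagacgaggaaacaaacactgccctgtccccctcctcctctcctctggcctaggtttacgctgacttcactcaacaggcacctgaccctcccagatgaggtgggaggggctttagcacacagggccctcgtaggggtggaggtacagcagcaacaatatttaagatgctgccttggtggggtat
The windows are chr5:147726012-147726261 for Flt1 (minus strand), chr17:46032378-46032627 for Vegfa (minus strand), chr2:33215711-33215960 for Angptl2 (plus strand) and chr4:148500463-148500712 for Angptl7 (minus strand). The Flt1 window held 23 CG dinucleotides, more than 86.7% of all 32851 windows in the table, and the Angptl7 window held 4, more than 37.8% of them. Vegfa and Angptl2 lay between these, with 11 and 9 CG dinucleotides. Flt1 had 3 GC boxes, 1 hypoxia core of the G form and 1 TATA box, whose first base lay 31 bases before the start. Vegfa and Angptl2 had 2 GC boxes each and no other match, and in the Angptl7 window none of these letters were found. Of all windows, 32.7% held a GC box, 28.2% the G form of the hypoxia core, 16.6% its A form and 12.4% a TATA box. The windows of the genes that were not called held such features as well: Vegfb, Vegfc and Kdr had 26, 30 and 16 CG dinucleotides and 4, 2 and 2 GC boxes, and Vegfb and Kdr had 2 hypoxia cores of the G form each. These matches describe the letters of the windows only.

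The makeup of the angiopoietin-like group differed between the genotypes. Angptl7 and Angptl2 were lower in PRC1 i2KO and Angptl4 was higher. Vegfa and Flt1 were higher too, while Vegfb did not pass the test and Vegfc and Kdr were near 0 reads in both groups. In all, 3 of the 8 genes rose, 2 fell, 1 did not pass the test and 2 had too few reads to be tested. Of all 15665 tested genes 33.9% were called (18.8% rose and 15.1% fell, edgeR adjusted p under 0.05). Flt1 passed the filter on low counts only through its PRC1 i2KO reads, so its presence among the tested genes already required a difference.

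**Figure D1:**
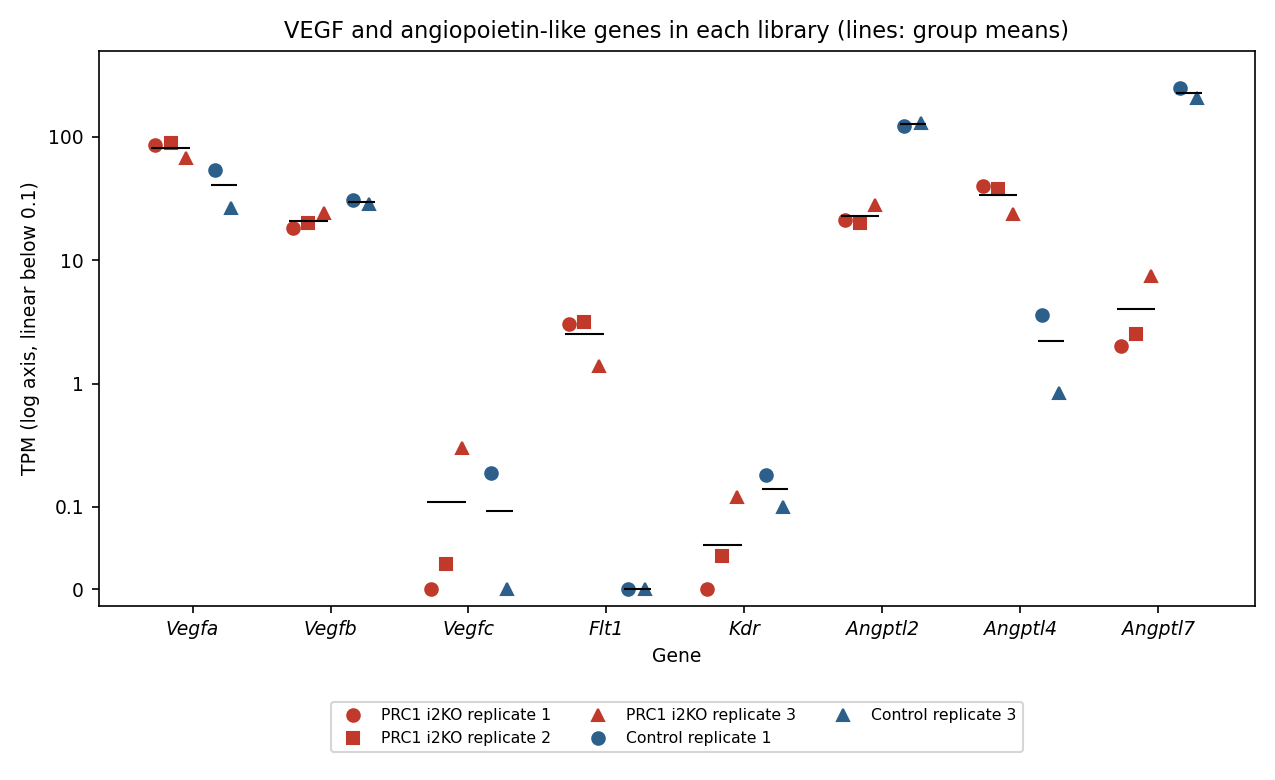
TPM of each of the 8 genes (log axis, linear below 0.1) in the 3 PRC1 i2KO libraries (red) and the 2 Control libraries (blue), with lines at the group means. Angptl7 lies between 2.0 and 7.51 TPM in PRC1 i2KO and at 249 and 206 TPM in Control, and Flt1 is at 0 in both controls.

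Angptl7, the angiopoietin-like gene of resting follicle stem cells, stood at 2.59, 3.24 and 9.32 CPM in replicates 1, 2 and 3 of PRC1 i2KO, against 282.6 and 233.1 CPM in replicates 1 and 3 of Control. Every PRC1 i2KO library lay far below both controls, and replicate 3 was the highest of the 3. Angptl7 fell by 5.61 on the log2 scale (SE 0.58, edgeR adjusted p = 0.00391), and 36 of the 15665 tested genes had a larger fall. Without PRC1 i2KO replicate 3 its log2 fold change was -6.41 (edgeR adjusted p = 2.87e-10). In TPM, which allows genes to be compared per length, Angptl7 was the highest of the 8 genes in both controls, with 3.1% and 3.75% of tested genes above it. In PRC1 i2KO 79.7%, 77.1% and 63.2% of tested genes were above it.

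Angptl2 encodes a secreted protein with roles in inflammation and vessel growth. It stood at 44.0, 41.3 and 55.8 CPM in replicates 1, 2 and 3 of PRC1 i2KO, against 225.1 and 235.9 CPM in replicates 1 and 3 of Control. The groups did not overlap, and the spread within each was small beside the gap between them. Angptl2 fell by 2.29 on the log2 scale (4.90-fold, SE 0.13, edgeR adjusted p = 2.87e-06).

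Angptl4 encodes an inhibitor of lipoprotein lipase that is induced by fasting, PPAR factors and low oxygen. It stood at 51.0, 49.3 and 30.4 CPM in replicates 1, 2 and 3 of PRC1 i2KO, against 2.95 and 0.995 CPM in replicates 1 and 3 of Control. All 3 PRC1 i2KO libraries were above both controls, which rest on 24 and 32 reads. Angptl4 rose by 4.77 on the log2 scale (SE 0.51, edgeR adjusted p = 0.000826). The size depended on the controls: leaving out Control replicate 1 gave a log2 fold change of 5.44 and leaving out Control replicate 3 gave 3.87, and both kept the call (edgeR adjusted p = 7.31e-05 and 0.000858).

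Per length, the order of these genes turned round. In PRC1 i2KO replicates 1, 2 and 3, Angptl4 was 19.9, 14.9 and 3.15 times as high as Angptl7 in TPM, while in Control replicates 1 and 3 that ratio was 0.0145 and 0.00408. Angptl4 made up 63.1%, 62.6% and 40.0% of the summed TPM of the group in PRC1 i2KO, against 0.958% and 0.25% in Control. Angptl7 made up 3.17%, 4.22% and 12.7% in PRC1 i2KO, against 66.2% and 61.3% in Control. Angptl2 took 33.7%, 33.2% and 47.3% in PRC1 i2KO, against 32.8% and 38.5% in Control, so its share overlapped between groups while its level did not. The summed TPM of the group was 63.1, 60.0 and 59.1 in PRC1 i2KO and 376 and 335.9 in Control.

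**Figure D2:**
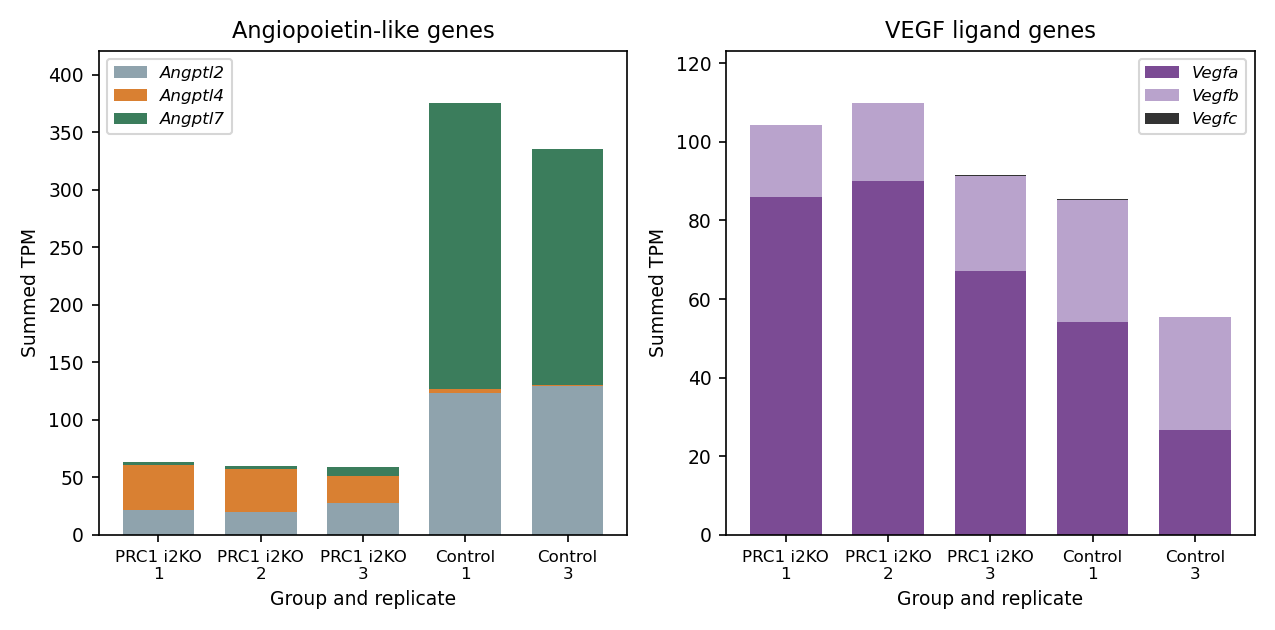
Stacked TPM of the angiopoietin-like genes (left) and of the VEGF ligand genes (right) in each library, PRC1 i2KO replicates 1, 2 and 3 and then Control replicates 1 and 3. The angiopoietin-like total lies between 59.1 and 63.1 TPM in PRC1 i2KO and is mostly Angptl4 and Angptl2, while the controls reach 376 and 335.9 TPM and are mostly Angptl7 and Angptl2.

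Vegfa, the main vessel growth factor of the family, stood at 116.9, 116.8 and 81.7 CPM in replicates 1, 2 and 3 of PRC1 i2KO, against 52.7 and 26.8 CPM in replicates 1 and 3 of Control. The groups did not overlap, but the controls differed from each other about as much as the lowest PRC1 i2KO library differed from the higher control. Vegfa rose by 1.44 on the log2 scale (2.71-fold, SE 0.35, edgeR adjusted p = 0.0298). It was the least secure of the calls, lost without PRC1 i2KO replicate 2 (edgeR adjusted p = 0.0575) or replicate 3 (0.0710), with log2 fold changes of 1.35 and 1.61. Over all 14 alternatives its adjusted p lay between 1.54e-05, from DESeq2, and 0.0782.

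Vegfa also differed in the length of transcript that its reads imply. Reads divided by TPM grow with the effective length that the quantification gave a gene in that library. Relative to the median gene of the library, this value was 0.884, 0.849 and 0.824 for Vegfa in PRC1 i2KO replicates 1, 2 and 3, against 0.714 and 0.743 in Control replicates 1 and 3. The ratio of the group means was 1.17, and 12.5% of 9905 genes with at least 50 reads in every library had a ratio as far from 1. The groups did not overlap for Vegfa, as for 32.4% of those genes. For Vegfb and Angptl2 the ratio was 0.990 and 1.01 and the groups overlapped. On TPM, which divides by this length, Vegfa averaged 81.1 ± 12.2 in PRC1 i2KO (SD, n = 3) and 40.4 ± 19.5 in Control (SD, n = 2), a smaller gap than in CPM.

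Vegfb, a ligand of the Flt1 receptor, stood at 12.2, 12.0 and 15.4 CPM in replicates 1, 2 and 3 of PRC1 i2KO, against 17.2 and 17.3 CPM in replicates 1 and 3 of Control. The PRC1 i2KO libraries were all lower, yet the difference did not pass the test (log2 fold change -0.38, SE 0.20, edgeR adjusted p = 0.183). Among all tested genes 59.5% had groups that did not overlap. Per length, Vegfa was 4.74, 4.52 and 2.78 times as high as Vegfb in PRC1 i2KO, against 1.75 and 0.923 times in Control. Vegfa thus led the ligands in 4 of 5 libraries, and Vegfb was slightly above it in Control replicate 3.

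Vegfc, the lymphatic ligand, had 0, 1 and 8 reads in PRC1 i2KO replicates 1, 2 and 3, against 2 and 0 reads in Control replicates 1 and 3. The ratio of summed reads, scaled for depth, was 3.63 with an exact 95% binomial interval of 0.752 to 34.5, which covers counting error only, so no difference was detectable at this depth.

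Flt1, the receptor that binds VEGFA and VEGFB, had 126, 272 and 82 reads in PRC1 i2KO replicates 1, 2 and 3, against 0 and 0 reads in Control replicates 1 and 3. In CPM this was 13.1, 12.8 and 4.32 in PRC1 i2KO, and the 0 reads over both controls allow a level of up to 0.0745 CPM (3 reads over the group). The pooled PRC1 i2KO level of Flt1 was 129.1 times this ceiling, which ignores counting error in PRC1 i2KO and the spread between libraries. For the lowest PRC1 i2KO library the ratio was 58.0. The exact 95% binomial lower limit, which covers counting error only, was 104.6. Dropping single PRC1 i2KO libraries moved the pooled ratio to between 97.5 and 172.8. The edgeR adjusted p of Flt1, 0.000732, is given as a description only, since Flt1 entered the test through the PRC1 i2KO reads alone. With either control left out the ceiling rests on fewer reads. The ratio was then 26.0 without Control replicate 3 and 103.1 without Control replicate 1. In TPM Flt1 reached 3.05, 3.13 and 1.39 in PRC1 i2KO, so that Vegfa was 28.2, 28.8 and 48.3 times as high in the same libraries.

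Kdr, the main signalling receptor for VEGFA, was near 0 in both groups. It had 0, 3 and 8 reads in PRC1 i2KO replicates 1, 2 and 3, against 3 and 11 reads in Control replicates 1 and 3. The depth-scaled ratio of summed reads was 0.634 with an exact 95% binomial interval of 0.261 to 1.503, which covers counting error only, so no difference was detectable.

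Endothelial cells are the usual site of both receptors, and their markers were read beside them. The summed level of 14 blood endothelial markers was 4.56, 5.41 and 9.79 CPM in replicates 1, 2 and 3 of PRC1 i2KO, against 3.2 and 1.4 CPM in replicates 1 and 3 of Control. Of these markers, 10 stayed under 1 CPM in every library, and Cldn5 and Erg had 0 reads throughout. Ptprb, an endothelial phosphatase gene, had 2, 14 and 33 reads in PRC1 i2KO against 0 and 0 reads in Control. Like Flt1, it entered the test through the PRC1 i2KO reads alone, so its edgeR adjusted p of 0.0273 is a description only. Egfl7, a secreted endothelial factor, had 3.21, 2.45 and 1.00 CPM in PRC1 i2KO and 0.492 and 0.529 CPM in Control (edgeR adjusted p = 0.0615). The other tested markers, Pecam1, Tek and Plvap, did not pass either (edgeR adjusted p = 0.801, 0.948 and 0.410). They averaged 0.767, 0.487 and 1.05 CPM in PRC1 i2KO and 0.617, 0.494 and 0.371 CPM in Control. Cdh5, the endothelial cadherin, had 0 reads in PRC1 i2KO replicates 1 and 2 and in both controls, and 18 reads in PRC1 i2KO replicate 3. Among the PRC1 i2KO libraries Flt1 was lowest in replicate 3, as Egfl7 was, while Ptprb, Cdh5 and the summed level were highest there. The 8 pericyte and smooth muscle markers summed to 377.7 to 486.5 CPM in PRC1 i2KO and 750.8 to 824 CPM in Control. Most of that sum was Cspg4, at a mean of 291.6 and 778.1 CPM, and Notch3, at 121.1 and 8.94 CPM. Of the 8 markers, 3 stayed under 1 CPM in every library. Rgs5 had 2.18, 3.71 and 0.579 CPM in PRC1 i2KO against 0 and 0 CPM in Control. It also entered the test through the PRC1 i2KO reads alone, so its edgeR adjusted p of 0.0062 is a description only. Notch3 rose and Cspg4 fell (edgeR adjusted p = 4.47e-06 and 0.00363). The part of vessel cells in the Flt1 result was not tested. The 6 lymphatic endothelial markers summed to 0.622, 0.517 and 0.684 CPM in PRC1 i2KO and to 1.35 and 1.80 CPM in Control, with Flt4 and Mmrn1 at 0 reads throughout.

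The order of the 8 levels per length was read within each group. In PRC1 i2KO Vegfa came first (81.1 ± 12.2 TPM, SD, n = 3), above Angptl4 (33.7 ± 8.77), Angptl2 (23.1 ± 4.29) and Vegfb (20.8 ± 3.08), whose ranges overlapped. Angptl7 (4.01 ± 3.04) and Flt1 (2.52 ± 0.982) overlapped as well, and Vegfc and Kdr were at or under 0.3 TPM in each library. In Control Angptl7 came first (227.4 ± 30.5 TPM, SD, n = 2), then Angptl2 (126.3 ± 4.14), then Vegfa (40.4 ± 19.5) and Vegfb (29.9 ± 1.51), whose ranges overlapped, then Angptl4 (2.22 ± 1.95). Vegfc, Kdr and Flt1 were at or under 0.19 TPM in each control.

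The PRC1 i2KO libraries differed among themselves in one direction for the genes that were tested. For each of the 6 tested genes, replicate 3 was the PRC1 i2KO library nearest to the control mean in log2 CPM. That was also so for 46.2% of all tested genes and for 58.5% of the 5310 called genes. The controls differed as well, with Vegfa, Angptl4 and Angptl7 higher in replicate 1 than in replicate 3.

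**Figure D3:**
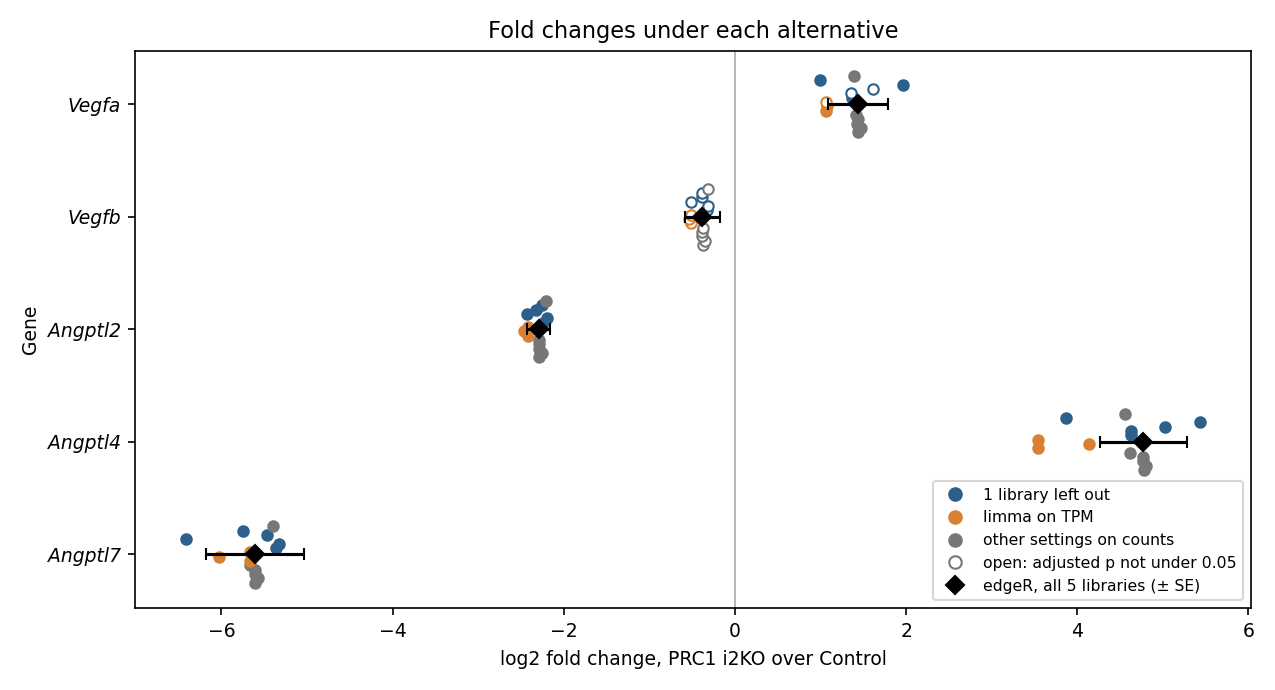
Log2 fold changes of the 5 tested genes with control reads under each alternative, with black diamonds for the edgeR fit on all 5 libraries (bars: SE) and open circles where the adjusted p was not under 0.05. Angptl2, Angptl4 and Angptl7 keep their direction and call in all 14 alternatives, Vegfa stays between 0.99 and 1.97 and loses its call in 3, and Vegfb is called in none.

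By the shape of the profile over the 5 libraries, the genes nearest to each of the 6 were looked for among 12357 named genes whose mean reached 1 CPM. The measure was the root mean square difference of centred log2 CPM, where 0 is an identical profile. Nearest to Vegfa was Ncapg2, a condensin subunit gene, at 0.074, followed by Ncoa7 (0.091) and Txnrd1 (0.094). Nearest to Vegfb were Slc39a3 (0.010), Ctsl (0.025) and Git1 (0.025). Angptl2 was closest to Gabre (0.024), Id2, a target of BMP signals (0.066), and Igfbp7 (0.071). Angptl4 was closest to Skint2 (0.137), Depp1 (0.148) and Pclaf, a replication gene (0.163). Angptl7 was closest to Sncg (0.258), Sphkap (0.274) and Cyp26b1, which degrades retinoic acid (0.284). Flt1 was closest to Scn2b (0.270), Mtcl1 (0.293) and Rgs4 (0.293), of which the first 2 also averaged 0 CPM in Control.

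Other ligands and receptors of the VEGF and angiopoietin families were mostly too low to test. Of 14, 5 were tested, of which 1 rose and 4 did not pass (20% called, against 33.9% of all tested genes), with a median log2 fold change of 0.86 against -0.006 for all tested genes. The one that rose was Nrp2, a co-receptor for VEGF ligands and semaphorins. It stood at 158.6, 168.6 and 135.0 CPM in replicates 1, 2 and 3 of PRC1 i2KO, against 6.40 and 3.08 CPM in replicates 1 and 3 of Control. Nrp2 rose 36.8-fold (edgeR adjusted p = 4.45e-05), and its log2 fold change without Control replicate 3 was 4.59. Its relative Nrp1 averaged 6.15 ± 1.02 CPM in PRC1 i2KO (SD, n = 3) and 3.51 ± 1.13 CPM in Control (SD, n = 2; edgeR adjusted p = 0.0973). The ligand gene Vegfd stood at 10.6 ± 2.79 CPM in PRC1 i2KO and 10.5 ± 2.24 CPM in Control (edgeR adjusted p = 0.945). Flt4, Angpt4 and Angptl8 had 0 reads in every library.

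Genes that sense oxygen, which regulate Vegfa in many tissues, were called at about the background rate. Of 10 HIF subunit and oxygen sensor genes, 1 rose, 2 fell and 7 did not pass (30% called, against 33.9% of all tested genes, median log2 fold change -0.33). Arnt2, a partner subunit and the 1 gene counted as risen, stood at 5.42 ± 2.01 CPM in PRC1 i2KO (SD, n = 3). In Control it stood at 0.370 ± 0.347 CPM (SD, n = 2), from 5 and 4 reads. It passed the filter on low counts only through its PRC1 i2KO reads, so its edgeR adjusted p of 0.00171 is a description only. Its log2 fold change of 4.28 became 5.36 without Control replicate 1 and 3.11 without Control replicate 3. Arnt, the common partner of HIF1A, fell by 0.52 on the log2 scale (edgeR adjusted p = 0.00264), and Hif1an, an inhibitor of HIF1A, fell by 0.60 (edgeR adjusted p = 0.00925, and 0.0835 without Control replicate 3). Hif1a itself stood at 110.1 ± 15.8 CPM in PRC1 i2KO and 141.3 ± 14.5 CPM in Control (edgeR adjusted p = 0.0659). Without Control replicate 3, 2 of the list rose and 1 fell, and without PRC1 i2KO replicate 3, 2 rose.

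Transcripts known to respond to low oxygen were called at a rate near that of all tested genes. Of 24, 5 rose, 5 fell and 14 did not pass (41.7% called, against 33.9% of all tested genes, median log2 fold change 0.05). Those that rose included genes of glycolysis: Pgk1 rose 2.29-fold, Aldoa 1.91-fold, Eno1 1.70-fold and Ldha 1.44-fold (edgeR adjusted p = 0.00017, 0.000219, 0.000728 and 0.00564). Those that fell included Bnip3, a mitophagy gene (1.93-fold), Vldlr, a lipoprotein receptor (1.84-fold), Ndrg1 (2.24-fold) and P4ha2, a collagen prolyl hydroxylase (2.12-fold), with edgeR adjusted p = 0.0013, 0.00204, 0.0149 and 0.022. The calls of Ldha and P4ha2 were lost without Control replicate 3 (edgeR adjusted p = 0.063 and 0.311), that of P4ha2 also without PRC1 i2KO replicate 2 (0.0732), and that of Ndrg1 without PRC1 i2KO replicate 3 (0.1103). Slc2a1 and Car9, widely used markers of hypoxia, did not pass (edgeR adjusted p = 0.904 and 0.381; these 2 were picked with their values known). With Control replicate 1 left out, 8 of the list rose. With Control replicate 3 left out, 3 rose and 3 fell, and with PRC1 i2KO replicate 2 left out, 3 fell.

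PPAR factors, their lipid targets and the lipase system, to which Angptl4 belongs, held both large rises and small falls. Of 31 such genes 25 were tested, of which 11 rose, 3 fell and 11 did not pass (56% called, against 33.9% of all tested genes, median log2 fold change 0.22). Fabp5, a fatty acid carrier, stood at 278.7 ± 8.39 CPM in PRC1 i2KO (SD, n = 3) and 11.7 ± 2.32 CPM in Control (SD, n = 2; edgeR adjusted p = 1.22e-07). The lipid droplet gene Plin2 stood at 193.8 ± 33.4 CPM in PRC1 i2KO and 30.6 ± 2.92 CPM in Control (edgeR adjusted p = 6e-06). The fatty acid receptor gene Cd36 rose 36.8-fold, with 4 and 22 reads in Control replicates 1 and 3. It passed the filter on low counts only through its PRC1 i2KO reads, so its edgeR adjusted p of 6.37e-06 is a description only. Lpl, the lipase that ANGPTL4 inhibits, stood at 108.6, 87.7 and 66.3 CPM in replicates 1, 2 and 3 of PRC1 i2KO, against 1.23 and 1.83 CPM in replicates 1 and 3 of Control (edgeR adjusted p = 6.72e-06). Pparg, also a marker of the sebaceous gland, stood at 18.9 ± 4.13 CPM in PRC1 i2KO and 0.311 ± 0.440 CPM in Control (0 and 20 reads). Like Cd36, Pparg passed the filter only through its PRC1 i2KO reads, so its edgeR adjusted p of 0.000199 is a description only. The 11 rises include Cd36 and Pparg. Neither Lpl nor Pparg was named by the rule for naming genes, and both were picked with their values known. The coactivator gene Ppargc1a fell 2.95-fold (edgeR adjusted p = 0.00249), Ppard fell 1.37-fold (0.0283) and Sel1l, which helps Lpl leave the endoplasmic reticulum, fell 1.298-fold (0.0198). Without PRC1 i2KO replicate 1, PRC1 i2KO replicate 2 or Control replicate 3, only Ppargc1a of these was left, and Sel1l was also lost without Control replicate 1 (edgeR adjusted p = 0.0628). The 6 adipocyte markers summed to 1.79 to 2.69 CPM in PRC1 i2KO and to 0.560 to 1.11 CPM in Control. Of these, Cidec had 9, 13 and 17 reads in PRC1 i2KO against 0 and 0 reads in Control. It entered the test through its PRC1 i2KO reads alone, so its edgeR adjusted p of 0.0184 is a description only. Plin4 had 1.66, 0.987 and 1.79 CPM in PRC1 i2KO and 0.615 and 0.435 CPM in Control (edgeR adjusted p = 0.178). Adipoq and Plin1, also adipocyte markers, had 0 reads in every library. Their part in the lipid gene results was not tested.

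Genes of other secreted or cell-surface proteins that act on vessels were also called at a rate near that of all tested genes. Of 25, 23 were tested, of which 5 rose, 5 fell and 13 did not pass (43.5% called, against 33.9% of all tested genes, median log2 fold change 0.14). Among those that rose were Timp3 (4.05-fold) and Adamts1 (3.85-fold), which encode proteins that restrain vessel growth, with edgeR adjusted p = 2.71e-06 and 0.000212. Pdgfc, a growth factor, rose 5.68-fold and Efnb2, a cell-surface ephrin of arteries, rose 1.55-fold (edgeR adjusted p = 0.000198 and 0.00106). Col18a1, whose product is cut to endostatin, fell 4.53-fold, and the matrix signal genes Ccn2 and Ccn1 fell 9.33-fold and 5.30-fold (edgeR adjusted p = 1.01e-05, 0.00013 and 0.00106). Ccn1 was not called without PRC1 i2KO replicate 3 (edgeR adjusted p = 0.0513), and Fgf1 fell 3.94-fold (edgeR adjusted p = 0.00028). Ntn4, a netrin that in mouse follicles is switched on together with Angptl4, stood at 32.1, 32.7 and 27.2 CPM in PRC1 i2KO, against 9.72 and 16.7 CPM in Control (edgeR adjusted p = 0.00361; picked with its values known).

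**Figure D4:**
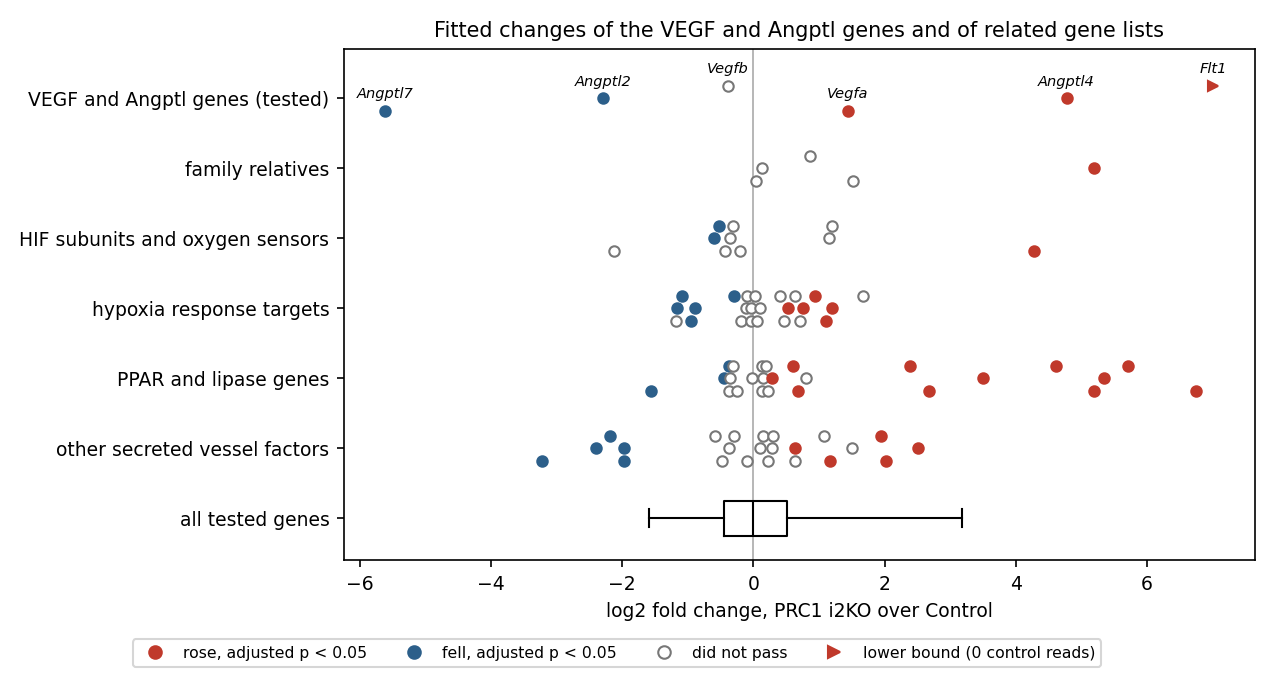
Log2 fold change (PRC1 i2KO over Control) of each tested gene of the VEGF and angiopoietin-like group and of 5 related lists, with filled points where the adjusted p was under 0.05 and a box for all 15665 tested genes (line: median, box: quartiles, whiskers: 5 and 95 percentiles). Flt1 is drawn at 7.01, the log2 ratio of its pooled PRC1 i2KO level to the control ceiling. Angptl7 lies furthest to the left, and the PPAR and lipase list has the most rises, 11 of 25.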

How the data were processed

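RNA was measured in 5 libraries of sorted hair follicle stem cells, each from 50000 cells, per the labels' protocols. The authors deposited expected counts and TPM per gene and library; per the submitters' processing notes the tools included DESeq2 1.38.2, STAR 2.7.9a and RSEM 1.3.3 and the build was mm39, with no roles stated. Deposited TPM divides by length and sums to one total in each library, so it keeps no depth. The control called replicate 3 carries that number in its title and column name and another in its description.

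Expected counts were rounded, and R 4.3.3 with edgeR 4.0.16 gave the test (filterByExpr, TMM factors 0.983 to 1.02, robust quasi-likelihood F test, genotype as the only term), with Benjamini-Hochberg adjustment over 15665 genes. The tests were run on simulated data, where the share of false calls was above the nominal 0.05 with edgeR, limma and DESeq2, and highest with DESeq2. The SE is the log2 fold change divided by the square root of F. Alternatives used DESeq2 1.42.0, limma 3.58.1 on log2(TPM + 1) and log2(TPM + 0.1), other scalings and filters, each library left out, and a replicate block. Counts within a group differed beyond sampling noise (chi-square divided by its degrees of freedom 10.1 to 41.8), so the tests kept all libraries apart. The binomial intervals and the Flt1 ratios to the ceiling used reads summed over each group and leave out this spread. The gene members and lists were chosen with earlier results of these data known. From each list, up to 4 called genes per direction with the smallest adjusted p were named, except for genes that are not reported here. For the 1 list symbol with several gene IDs, the ID with most reads was used. Because strandedness and the gene annotation used are not known here, overlapping genes are uncertain. The supplied genome was of another build (GRCm38) and served only for promoter letters.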

Additional observations from a re-analysis of the deposited data

How the results depend on the processing

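With the 14 alternatives, Angptl2, Angptl4 and Angptl7 kept their direction and stayed past the threshold, and Vegfb stayed outside it; the highest adjusted p of Angptl7 was 0.0497, with the replicate block. Vegfa kept its direction and lost its call in 3 of 14, without PRC1 i2KO replicate 2 or 3 and on unfiltered TPM (limma adjusted p = 0.0782). Of the 8 genes, 2 to 3 rose and 2 fell with any 1 library left out. Over all genes, leaving out 1 library gave 1963 to 3099 rises and 1359 to 2757 falls, the fewest falls without Control replicate 3. TPM gave 1866 rises with a pseudocount of 1, 1881 with 0.1 and 1410 with no filter, against 2939 in the count fit, and the median log2 fold change over the genes each tested was -0.13, -0.15 and -0.05, against -0.006; the cause was not tested. Of the HIF list, DESeq2, which made the most false calls on simulated data, called 2 as risen, and without a filter on low counts 5 fell. Of the hypoxia targets, unfiltered TPM gave 3 rises and 3 falls, and the replicate block 3 falls. With 1 library left out, the HIF list had 1 to 2 rises and 1 to 3 falls, the hypoxia targets 3 to 8 rises and 3 to 5 falls, the PPAR and lipase list 10 to 11 rises and 1 to 4 falls, the other vessel factors 5 to 7 rises and 5 to 6 falls, and the family relatives 1 rise and 0 falls. Where 1 control is left, it is assumed to vary like the other group. The labels do not say what the replicate numbers share, and only 1 and 3 occur in both groups. Same-numbered libraries deviated with r = 0.0737 and 0.115 across genes, and the replicate block gave 2521 rises and 1900 falls. On TPM with a pseudocount of 1, the calls of Hif1an, Ldha and Sel1l were lost (limma adjusted p = 0.119, 0.0761 and 0.383), and with the replicate block those of P4ha2 and Ppard (edgeR adjusted p = 0.077 and 0.0749); unfiltered TPM also lost Vldlr and Ppard (limma adjusted p = 0.0732 and 0.0787). With 2 controls and few control reads, the levels of Flt1, Kdr, Vegfc and Angptl4 in Control are limited by depth.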
